A study of Saccharomyces cerevisiae with 7 samples.

Results

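The 3’-ends of 5’-NGD fragments of the PGK1-SL reporter were compared between *rps3* cells and *dom34Δ* cells, position by position and in 30-nt windows counted from the stem loop. The comparison takes 2 of the 7 libraries of the series, chosen by strain and reporter and not by any measured value. The yeast strains were BY4741 *ski2Δ dom34Δ* and BY4741 *ski2Δ rps3* with the R116A/R117A mutations in the chromosomal gene, so both lacked Ski2 and only the former lacked Dom34. Both expressed the reporter from the GAL1 promoter in galactose and raffinose medium. RNA from 2 or more biological replicates went into each library, which leaves 1 library per condition, no measured spread and no test. Cells with no mutation besides *ski2Δ* were not analysed here, and no strain of the series stands in for them. Gain and loss below mean a higher or lower share in *rps3* than in *dom34Δ* cells, and do not say which strain changed.

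No-go decay (NGD) acts on mRNAs on which ribosomes have stalled, and an endonucleolytic cleavage of the mRNA separates a 5’-fragment from a 3’-fragment. Dom34 (YNL001W) works with Hbs1 (YKR084C) to split stalled ribosomes into subunits, and Rps3 (YNL178W) is a small-subunit protein that contacts the mRNA where it enters the ribosome. Ski2 (YLR398C) is an RNA helicase that feeds mRNA to the cytoplasmic exosome, the 3’-5’ exonuclease. In cells without it 5’-fragments are stabilized, although a mapped 3’-end need not be the site of the first cut. PGK1 (YCR012W) encodes a glycolytic enzyme and is the base of the reporter, in which a stable stem loop blocks the ribosome. Locus names follow the R64 assembly.

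For each reporter position the files give the number of reads that ended there, as counts. The 5’-primer of the amplification anneals at position 585, and the 435 positions from 606 to the stem loop were kept, the farthest of them 434 nt from it. This span held 2075836 of the 2083425 reads of *rps3* cells (99.6%) and 4846400 of the 4867111 reads of *dom34Δ* cells (99.6%). The 7 libraries ranged from 606108 to 4867111 reads. Each position is given as its share of the library's reads in the span. Of all reads of the library, 3 reads corresponded to 0.000144% in *rps3* and 6.16e-05% in *dom34Δ* cells. The 95% intervals given below include counting error and nothing else, because PCR copies of a molecule could not be recognised. Shares sum to 100% in each library, so a loss at a few positions raises all the others, and the shares do not measure how many fragments a cell held. The primer anneals within PGK1, and the sources used here do not say whether ends of the chromosomal PGK1 mRNA were kept apart from those of the reporter, so their part in the profiles was not tested.

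The ends of *rps3* and *dom34Δ* cells covered the same span but were weighted differently along it. Of the reads, 36.6% (interval 36.5 to 36.7) would have to be moved to other positions to turn one profile into the other. The share was higher in *rps3* cells at 275 of the 435 positions and lower at 160, and the median ratio of *rps3* to *dom34Δ* was 1.28. Every position held reads in both libraries, with medians of 2380 and 5676 reads and minima of 24 and 29. The interval of the difference held 0 at 21 positions. The gains of *rps3* cells were spread more widely than the losses. The 10 positions with the largest gains carried 9.41 percentage points, 25.7% of the whole gain, whereas the 10 with the largest losses carried 15.2 points, 41.5% of the whole loss.

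The highest positions were mostly different ones. Of the 20 positions with the highest share in each library, 5 were shared (25%), at 127, 187, 247, 304 and 349 nt upstream of the stem loop. At 349 nt the share was 1.76% in *rps3* and 1.86% in *dom34Δ* cells. At 247 nt it was 1.56% and 1.44%, so these peaks were of nearly the same height in both. The highest position of *rps3* cells, 304 nt with 57260 reads, held 2.76% of the reads against 1.26% in *dom34Δ* cells. The highest position of *dom34Δ* cells, 382 nt with 142953 reads, held 2.95% against 0.447% in *rps3* cells.

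**Figure D1:**
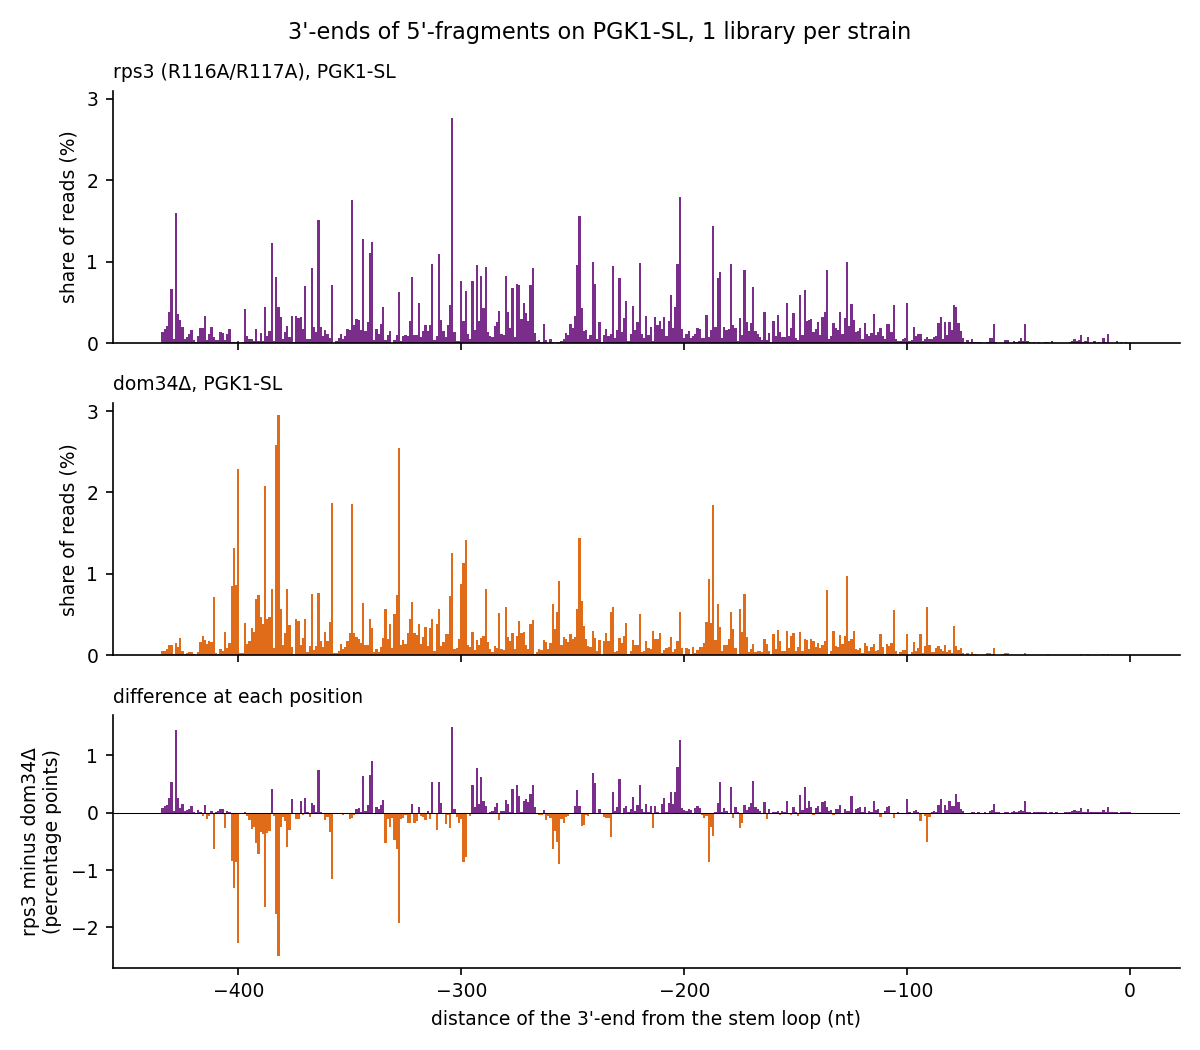
Share of the reads in the span (%) at each position of the PGK1-SL reporter in *rps3* and *dom34Δ* cells, against the distance upstream of the stem loop in nt, 1 library each. The highest position lies at 304 nt in *rps3* and at 382 nt in *dom34Δ* cells, and the *dom34Δ* profile is the higher one over most of the region from 360 to 419 nt.

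In 30-nt windows the ends of *rps3* cells gained share at both edges of the span, at 120 to 239 nt and at 270 to 299 nt. They lost most between 360 and 419 nt, and less at 240 to 269 nt and at 300 to 359 nt. The share was higher in *rps3* cells in 9 of 15 windows and lower in 6, and with windows counted from the first position of the span it was higher in 12 of 15 and lower in 3. Differences between windows made up 18.4% of the reads, which is 50.3% of the whole difference, and the remainder came from positions within the same window. Within a window, the reads that would have to be moved ranged from 15.1% at 0 to 29 nt to 60.1% at 390 to 419 nt. The 2 libraries were thus most alike in shape in the window from 0 to 29 nt, where they differed in level. In the next window, from 30 to 59 nt, 37.8% would have to be moved.

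Next to the stall few reads ended in either library, and more in *rps3* cells. The window from 0 to 29 nt held 15013 reads (0.723%) in *rps3* and 7299 reads (0.151%) in *dom34Δ* cells, a 4.80-fold higher share (interval 4.67 to 4.94), with 29 of 30 positions higher. The window from 30 to 59 nt held 0.630% and 0.229%. Over all 60 positions nearest to the stem loop the share was 1.35% in *rps3* and 0.380% in *dom34Δ* cells, 3.56-fold higher (3.49 to 3.63), and 55 of the 60 positions were higher. The higher share of *rps3* cells was therefore spread over this region and not held by single ends. The strongest single positions were 10 nt, with 2439 reads (0.117%) against 887 (0.0183%), and 47 nt, with 4787 (0.231%) against 1762 (0.0364%), 6.42-fold and 6.34-fold higher. Of the positions within 60 nt, the lowest ratio was at 57 nt, with 40 reads in *rps3* and 728 in *dom34Δ* cells. From 60 to 89 nt the share was 3.50% in *rps3* and 1.67% in *dom34Δ* cells.

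The window from 90 to 119 nt was the only one in which the libraries could not be told apart by counting error, with 4.03% in *rps3* and 4.06% in *dom34Δ* cells (difference -0.0297 points, interval -0.0617 to 0.00231). From there to 239 nt upstream *rps3* cells held the larger share again. The 150 positions from 90 to 239 nt held 37.7% of the reads in *rps3* and 28.5% in *dom34Δ* cells, a difference of 9.16 points with 107 positions higher. The window from 180 to 209 nt held the largest part of it, with 10.4% against 7.46%. From 240 to 359 nt the sums were close, 40.4% and 40.6%, but windows within this region moved in opposite directions. The window from 270 to 299 nt was 3.11 points higher in *rps3* cells (3.06 to 3.16) and the window from 300 to 329 nt was 2.01 points lower.

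Farther upstream the direction turned. From 360 to 419 nt *rps3* cells held 12.5% and *dom34Δ* cells 27.6% of their reads, a difference of -15.1 points (interval -15.2 to -15.0), which is the largest block of lost share. The window from 390 to 419 nt had the largest difference in points, with 11.2% in *dom34Δ* and 2.89% in *rps3* cells. The share was 3.87-fold lower in *rps3* cells. In the last 15 positions, 420 to 434 nt, all 15 were higher in *rps3* cells, with 4.48% against 1.15%, 3.89-fold (3.85 to 3.93). Much of that lay at 428 nt, where the share was 1.60% in *rps3* and 0.158% in *dom34Δ* cells. These are the ends closest to the primer, from the shortest products, and the part of product length in this gain was not tested. Between the 2 neighbouring windows the ratio of *rps3* to *dom34Δ* went from 0.258 to 3.89.

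*asc1* cells (R38D/K40E, in *ski2Δ*) with the same reporter are given beside these values only as levels, because a comparison with either strain would use the same library again. Their share was 0.897% within 60 nt, 49.0% from 90 to 239 nt, 40.5% from 240 to 359 nt, 5.57% from 360 to 419 nt and 1.31% from 420 nt on. The share from 360 to 419 nt was thus lowest in *asc1* and highest in *dom34Δ* cells, with *rps3* cells between them. From 420 nt on, *rps3* cells held the most.

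**Figure D2:**
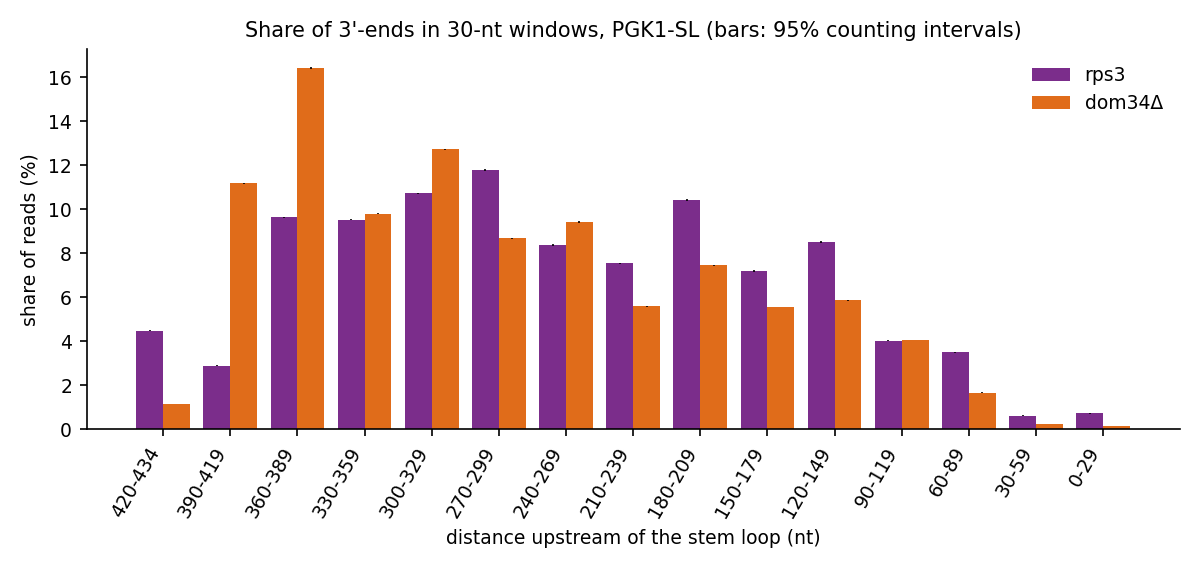
Share of the reads (%) in windows of 30 nt upstream of the stem loop (15 positions in the last) in *rps3* and *dom34Δ* cells. Each strain has 1 library, shown with counting intervals. The difference of *rps3* minus *dom34Δ* is lowest, at -8.30 points, from 390 to 419 nt. It is highest, at 3.33 points, from 420 to 434 nt.

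Single positions were then compared as ratios of shares over the 426 positions with at least 100 reads in either library. The share was at least 2-fold higher in *rps3* cells at 136 positions (31.9%) and at least 2-fold lower at 78 (18.3%). Within 90 nt of the stem loop 54 of the 81 positions kept were at least 2-fold higher. The positions at least 2-fold lower lay mostly far upstream, with 15 in the window from 390 to 419 nt, 11 each in those from 300 to 329 and from 360 to 389 nt and 14 in that from 240 to 269 nt. None lay within 30 nt of the stem loop or beyond 419 nt. Very large ratios occurred on the side of loss. At least 10-fold lower were 18 positions (4.23%), and at least 10-fold higher was 1 (0.235%), at 428 nt. Among positions with at least 0.1% of the reads in either library, the 5 highest ratios lay at 428, 10, 47, 210 and 203 nt. At 210 nt the share was 0.176% in *rps3* and 0.0299% in *dom34Δ* cells, 5.89-fold higher. The 5 lowest lay at 400 to 403 nt and at 259 nt, where the share was 78.1-fold lower in *rps3* cells.

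**Figure D3:**
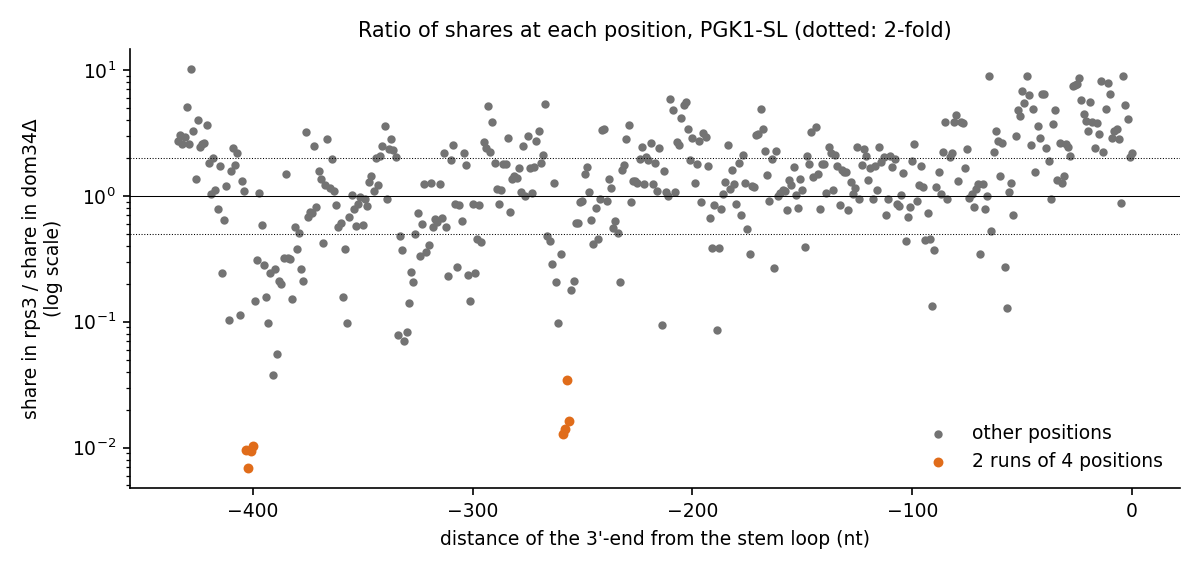
Ratio of the *rps3* share to the *dom34Δ* share at each position of the PGK1-SL reporter (log axis) against the distance upstream of the stem loop in nt. Ratios lie above 1 at most positions near the stem loop, reach 10.1 at 428 nt, and fall to 0.00690 within the run from 400 to 403 nt.

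The largest gain of *rps3* cells lay at 304 nt, followed by 428 nt with 1.44 points and 202 nt with 1.26 points. At 202 nt the share was 1.79% in *rps3* and 0.529% in *dom34Δ* cells, and at the neighbouring 203 nt it was 0.968% and 0.173%. These 2 adjacent positions were thus both higher in *rps3* cells, 3.39-fold and 5.60-fold. At 340 nt it was 1.24% against 0.342%, and at 341 nt 1.11% against 0.446%, a further adjacent pair. The other gains among the 10 largest were at 293, 364, 241 and 344 nt and measured 0.640 to 0.778 points. At 293 nt the share was 0.965% in *rps3* and 0.187% in *dom34Δ* cells, with 2.19% in *asc1* cells, and at 241 nt it was 0.991% and 0.297%, with 3.06% in *asc1* cells. At 304 nt *asc1* cells held 0.560%, less than either of the other strains. The gains were thus scattered from 202 nt upwards, at single positions and adjacent pairs.

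Of the 10 largest losses, 6 lay from 382 nt into the run at 400 to 403 nt and together carried 10.3 points. At 382 nt the share was 0.447% in *rps3* and 2.95% in *dom34Δ* cells, 6.59-fold lower, and at 383 nt it was 0.814% against 2.59%, 3.18-fold lower. At 388 nt it was 0.438% against 2.08%. These ends were lower in *rps3* cells but still above the median position, which held 0.115% in *rps3* cells. The losses at 328, 358 and 299 nt were of the same kind, with 0.627% against 2.55%, 0.708% against 1.87% and 0.275% against 1.13%.

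A different kind of loss was found at 2 runs of 4 neighbouring positions, where *dom34Δ* cells had peaks and *rps3* cells had next to none. The run from 400 to 403 nt held 258205 reads in *dom34Δ* cells (5.33%) and 1019 in *rps3* cells (0.0491%), 109-fold fewer of the reads. Its highest position, 400 nt, had 110758 reads in *dom34Δ* and 490 in *rps3* cells, and the position with the lowest ratio of the whole span had 63988 and 189 (145-fold lower). In *dom34Δ* cells these were the positions ranked 4, 11, 18 and 19 by share, and in *rps3* cells they ranked from 359 to 395 of 435.

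The run from 256 to 259 nt held 116704 reads in *dom34Δ* cells (2.41%) and 952 in *rps3* cells (0.0459%), 52.5-fold fewer of the reads. Its highest position was 256 nt, with 44472 reads in *dom34Δ* and 312 in *rps3* cells. The first positions of the 2 runs were 144 nt apart. At 404 nt, on the upstream side of the first run, the share was 0.171% in *rps3* and 0.156% in *dom34Δ* cells, but at 399 nt, on its other side, it was 0.00434% and 0.0298%, still 6.86-fold lower. Both neighbours of the second run were lower in *rps3* cells too, 2.90-fold at 260 nt and 5.64-fold at 255 nt, and 261 nt was 10.2-fold lower. The loss was thus largest in the runs and continued at a smaller size on 3 of their 4 sides. Together the 8 positions carried 7.64 points, 20.9% of the whole loss. Without them, in a setting chosen after the data were seen, the difference between the profiles was 33.4% of the reads in place of 36.6%.

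*asc1* cells held 0.0180% of their reads in the first run and 0.0409% in the second, so *rps3* was not the only strain with few ends there. The other 10 positions at least 10-fold lower in *rps3* cells were 8 single positions and the pair at 330 and 331 nt. Among them were 391 nt, with 582 reads against 35987, 189 nt, with 1669 against 45245, and 334 nt, with 915 against 27475. These 3 were well above the median of 5676 reads in *dom34Δ* cells, where the 2 shallowest of the 10 had 1411 reads at 357 nt and 3582 at 261 nt.

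The codon-repeat reporters carry (CGA)12 or (AAA)12 at position 950 and have the same PGK1 coding sequence upstream of it. This allowed the positions of the runs to be read in the *rps3* and *dom34Δ* libraries of those reporters, in which the stall lay 90 nt closer. Shares were taken here over the 344 positions before the codon repeats in every library. In the run from 400 to 403 nt, which lies 310 to 313 nt upstream of the codon repeats, *dom34Δ* cells held 5.45% of the reads with SL, 1.38% with (CGA)12 and 1.35% with (AAA)12. *rps3* cells held 0.0516%, 0.0283% and 0.0353%, so each of the 3 *dom34Δ* libraries lay above all 3 *rps3* libraries. That order was also found at 56 of the 344 single positions (16.3%) and the reverse order at 30 (8.72%), and the 3 libraries of a strain carry different reporters and are not replicates. The *dom34Δ* share was 106-fold higher with SL (interval 99.2 to 112), 48.9-fold with (CGA)12 (42.3 to 56.6) and 38.4-fold with (AAA)12 (33.5 to 43.9).

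The run from 256 to 259 nt showed the same order with a smaller difference. *dom34Δ* cells held 2.46% with SL, 0.720% with (CGA)12 and 0.518% with (AAA)12, and *rps3* cells held 0.0482%, 0.0378% and 0.0553%. The ratios were 51.0 (47.9 to 54.4), 19.0 (16.8 to 21.6) and 9.38 (8.41 to 10.5). With the codon repeats the runs of *dom34Δ* cells were on average near or below the level of all positions. An average position of the 344 held 0.291%, those of the first run held on average 0.346% with (CGA)12 and 0.339% with (AAA)12, and those of the second 0.180% and 0.130%. Single positions of the first run reached 0.559% with (CGA)12 and 0.549% with (AAA)12. The neighbouring 404 and 399 nt held 0.0610% and 0.0115% with (CGA)12, and 0.0817% and 0.0142% with (AAA)12. The first run thus stood above these 2 neighbours with the codon repeats too. At 397 nt, however, *dom34Δ* cells held 0.281% with (CGA)12 and 0.290% with (AAA)12, as much as some positions of the run. Beside the second run, 260 and 255 nt held 0.161% and 0.0783% with (CGA)12, and 0.143% and 0.0808% with (AAA)12. With SL the averages were 1.36% and 0.615%. The low share of *rps3* cells at these places in PGK1 was thus found with all 3 reporters. Run averages well above that of all positions were found in *dom34Δ* cells in both runs with SL only. The runs were chosen in the SL libraries, so the SL values describe that choice, and the codon-repeat libraries are separate ones. Whether the runs belong to the reporter mRNA or to the chromosomal PGK1 mRNA was not tested.

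**Figure D4:**
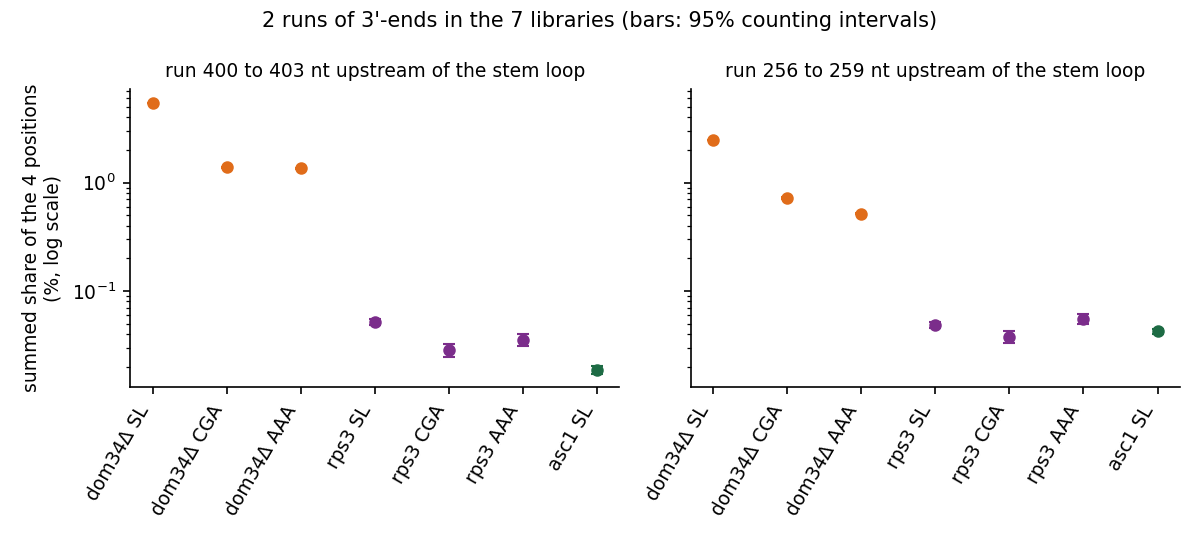
Share of the reads (%, log axis) in the runs at 400 to 403 nt and at 256 to 259 nt in the 7 libraries, over the 344 positions shared by the reporters, 1 library per point with 95% counting intervals. All 3 *dom34Δ* libraries lie at 0.518% or above and the *rps3* and *asc1* libraries at 0.0553% or below.

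The same comparison was made at all positions shared by the reporters, those of the 2 runs included. With SL, 15 of the shared positions were at least 10-fold lower in *rps3* than in *dom34Δ* cells, with (CGA)12 there were 18 (5.25%) and with (AAA)12 14 (4.07%). Of the 15 positions found with SL, 12 were also at least 10-fold lower with (CGA)12, which is 80% of the SL list and 66.7% of the (CGA)12 list. With (AAA)12 it was 10, 66.7% of the SL list and 71.4% of the (AAA)12 list. The 8 positions of the runs are among the 15, so these counts partly repeat the result given for the runs. All 8 were also at least 10-fold lower with (CGA)12, and all but 256 and 257 nt with (AAA)12. Outside the runs, 330, 331, 334 and 389 nt were at least 10-fold lower with both codon repeats, and 189, 214 and 391 nt with neither. All 15 had a ratio below 1 with both codon repeats, as did 54.4% of all shared positions with (CGA)12 and 52.9% with (AAA)12. The pairs of libraries shared no library with each other, but they shared the PGK1 sequence and the primer.

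Over the 344 shared positions the ratio of *rps3* to *dom34Δ* lay on the same side of 1 in all 3 reporters at 224. Spearman's rho of the ratios across these positions was 0.66 between SL and (CGA)12 and 0.68 between SL and (AAA)12. For the difference in share, the planned measure, rho was lower, 0.490 and 0.567. Both are given as a description, since neighbouring positions are not independent. The profiles differed by 36.6% of the reads with SL, 25.9% with (CGA)12 and 21.9% with (AAA)12 over these positions. Among the 10 largest gains with SL, 7 had the same direction with (CGA)12 and 9 with (AAA)12, and among the 10 largest losses it was 9 with each. Of all shared positions 45.6% were higher in *rps3* cells with (CGA)12 and 47.1% with (AAA)12. The position with the largest gain, 304 nt, had a ratio of 0.878 with (CGA)12 and 1.10 with (AAA)12.

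The size of the change differed between the reporters at some of these positions. At 328 nt the ratio was 0.253 with SL, 0.192 with (CGA)12 and 0.153 with (AAA)12, and at 358 nt it was 0.390, 0.254 and 0.186, so these ends were low in *rps3* cells with every reporter. At 382 nt, the highest position of *dom34Δ* cells with SL, it was 0.156 with SL and 0.882 and 0.809 with the codon repeats. At 428 nt it was 10.4 with SL and 2.39 and 2.04 with the codon repeats. The ratios at 382 and 428 nt therefore stood farther from 1 with SL than with the codon repeats.

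**Figure D5:**
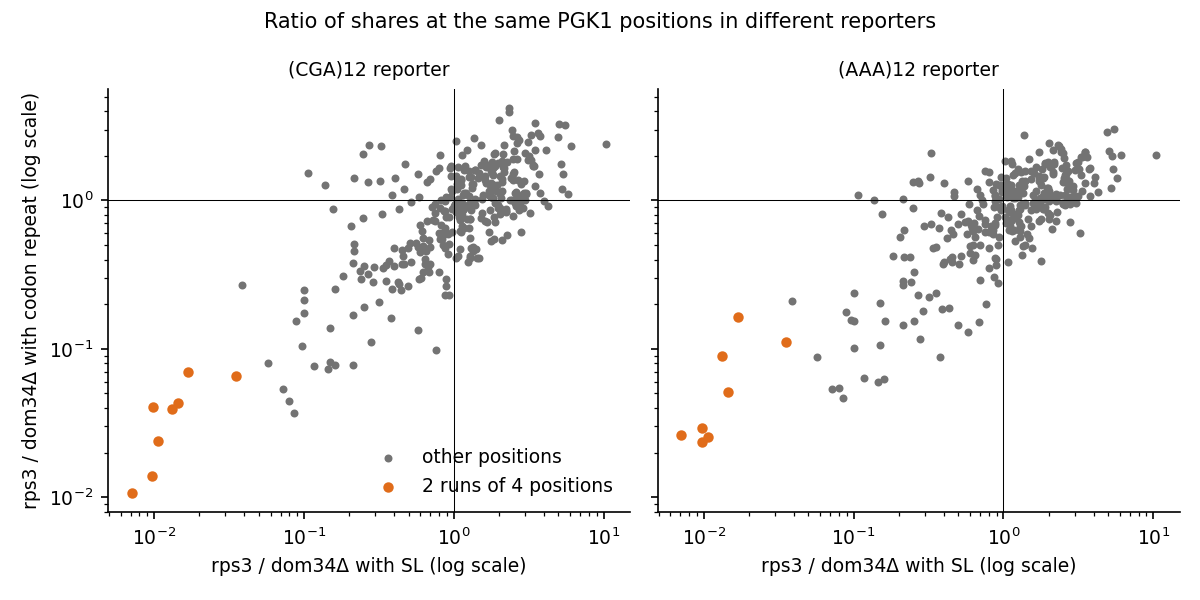
Ratio of the *rps3* share to the *dom34Δ* share at each of the 344 shared PGK1 positions with the SL reporter (x axis) against the same ratio with (CGA)12 or (AAA)12 (y axis), both on log axes. The positions of the 2 runs lie at the lower left, far below 1 in every reporter.

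In both strains the ends were unevenly distributed over the 3 positions of a codon. Positions whose number leaves a remainder of 1 after division by 3 held 51.4% of the reads in *rps3* and 52.2% in *dom34Δ* cells (difference -0.741 points, interval -0.822 to -0.660). Those with a remainder of 0 held 30.3% and 28.2%, and those with a remainder of 2 held 18.3% and 19.6%. *asc1* cells held 39.7% in the class with remainder 1. Which base of the codon this class is was not settled, since no reporter sequence was used here. The class led in 12 of the 15 windows in *rps3* and in 14 in *dom34Δ* cells. The gains and losses fell on the classes much as the reads did, with 48.1% of the gain and 50.1% of the loss in the class with remainder 1. The small difference in that class changed sign when high counts were capped, to 1.61 points. The windows deviated in both directions, with 66.9% in *rps3* against 53.7% in *dom34Δ* cells from 300 to 329 nt and 48.1% against 58.9% from 120 to 149 nt.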

How the data were processed

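Total RNA was ligated to a 3’-adaptor, amplified with a PGK1 primer and sequenced on an Illumina HiSeq. The authors used the Fastx toolkit for read quality, cutadapt for trimming and NovoAlign to place reads on the sequence of the reporter. The submitters' processing notes give cutadapt 1.12, SAMtools 1.13 and bedtools. The deposited values are counts of reads per position, not normalized. How NovoAlign was set, and whether duplicates were removed, is not given in the sources used here.

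The span starts at position 606, where some library first exceeds 100 reads. Shares have Wilson intervals, differences Newcombe intervals and ratios intervals on the log scale. The text names the 10 positions with the largest gain and loss, the 5 with the highest and lowest ratio among positions holding at least 0.1% in either library, and the highest of each library. Other positions were named after their values were seen. The positions, lists and settings were chosen with earlier results of these data known. Only the 2 stem-loop libraries enter the main values, and each sample was assigned by its labels. Python 3.11.15, NumPy 2.4.6, SciPy 1.17.1 and matplotlib 3.10.9 were used, and the code was tested on simulated profiles. Shares of all reads, capped counts, other spans, window widths, thresholds, running sums and libraries without their highest position were tried.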

Additional observations from a re-analysis of the deposited data

Results flagged for a closer look

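At 2 of the positions named for their change with SL, the ratio of *rps3* to *dom34Δ* lay on the other side of 1 with both codon repeats. At 383 nt upstream of the stem loop it was 0.324 with SL, 1.35 with (CGA)12 and 1.45 with (AAA)12. At 364 nt it was 2.03 with SL, 0.887 with (CGA)12 and 0.986 with (AAA)12. The last value came from 3113 reads in *rps3* and 13696 in *dom34Δ* cells. It is close to 1 and given without a counting interval, so its side of 1 is not settled. These differences between reporters were not tested, since each strain has 1 library per reporter.

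Some reads of the SL libraries lay outside the span. Before it were 179 reads in *dom34Δ* and 674 in *rps3* cells, and past the stem loop 20532 and 6915. There is no control library here to set them against.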

How the results depend on the processing

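Of 49 alternative values 26 were classed by set tolerances as the same, 22 as moved, and 1 changed sign. Only the differences in the class with remainder 1 and the values of rho could change sign. The other measures are counts, shares or parts that cannot be negative. The share of reads that differed, 36.6%, was 36.5% over all reads, 35.9% without the highest position of each library, 30.9% with counts capped at the 95th percentile, 34.9% within 400 nt of the stem loop, 32.4% with running sums over 3 positions and 33.4% without the 2 runs (chosen after the data were seen). The part of it between windows, 50.3%, was in the same settings 52.0% without the highest positions, 54.4% with capped counts, 45.7% within 400 nt and 48.4% without the runs, and 66.7% with 15-nt windows, 47.4% with 60-nt windows and 49.5% with windows counted from the first position of the span. *rps3* cells were higher in 21 of 29 windows of 15 nt, and in 12 of 15 windows counted from the first position, in place of 9 of 15. In place of 136 positions higher and 78 lower in *rps3* cells, there were 65 and 54 at 3-fold, 185 and 102 at 1.5-fold, 98 and 76 with a minimum of 1000 reads, and 122 and 60 with running sums. The difference in the class with remainder 1, -0.741 points, was -0.246 without the highest positions, -1.18 within 400 nt, -0.0306 without the runs and 1.61 with capped counts. Spearman's rho of the differences at shared positions, 0.490 between SL and (CGA)12 and 0.567 between SL and (AAA)12, was 0.499 and 0.610 with running sums and 0.519 and 0.576 without the highest position of each library. The cause was not tested.

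Counting error was small beside most of the reported differences. In the window from 90 to 119 nt and at 21 positions the interval of the difference held 0. The intervals cover no variation between cultures or library preparations, and strain and library cannot be told apart. No paired analysis was possible because each condition has 1 library and no result comes from a test. For the same reason no library was left out in turn. A comparison of the bases at the fragment ends was planned and not run, since it needs the reporter sequence.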
